A study of Mus musculus with 6 samples.

Results

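The mRNAs of 10 amino acid transporters of the plasma membrane were followed in mouse leukemia cells exposed in vivo to an inhibitor of the p53-MDM2 interaction. The 10 genes, Slc3a2, Slc7a5, Slc7a8, Slc7a6, Slc7a7, Slc7a11, Slc7a1, Slc1a5, Slc38a1 and Slc38a2, were taken by symbol from a table of 26082 gene names. Each stood on 1 line of the table, and all 10 belonged to the 11130 genes that averaged at least 1 FPKM over the 6 samples (FPKM are fragments scaled to transcript length and library size). Of these, 9 had a vehicle mean of 1 FPKM or more, and Slc7a11 passed only through the DS-5272 group. The cells were MLL-AF9 leukemia cells of the C57BL/6J strain, from a model in which c-Kit+ bone marrow progenitors receive the MLL-AF9 fusion oncogene by retrovirus and the resulting leukemia is passed serially from mouse to mouse. The leukemic mice were given vehicle (3 samples) or DS-5272 (3 samples) by mouth, the latter at 80 mg/kg. Leukemia cells were sorted from the bone marrow 24 h later, and their RNA was sequenced. All samples thus carry MLL-AF9. The fusion was delivered together with GFP, and for other assays of the study GFP+ cells were taken from the marrow, while the labels name no marker for the sort before RNA-Seq. The sources used here do not say whether the samples share 1 primary leukemia or whether each is 1 mouse, so p-values measure the spread between these samples only.

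Slc3a2 encodes the CD98 heavy chain, which carries no amino acids itself but brings a light chain of the Slc7 family to the cell surface, and the light chain sets what is carried. The light chains are obligate exchangers: to bring in leucine or arginine they must send out another amino acid, often glutamine that sodium-coupled carriers have brought in. In dividing blood and leukemia cells this supply of leucine, arginine and glutamine feeds protein synthesis and keeps the kinase complex mTORC1 active, while cystine uptake feeds glutathione.

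The libraries had depths estimated at 23200000 to 43000000 fragments, and each vehicle sample was deeper than each DS-5272 sample. The 9 tested markers of myeloid leukemia cells were read in all samples, at a sum of 3844 to 4370 FPKM in vehicle and 2342 to 2451 FPKM in DS-5272 samples. Of these, Ptprc (CD45), Itgam (CD11b) and Csf1r were called higher, Kit, Mpo, Elane and Ctsg were called lower, and Cd34 and Meis1 did not pass. Mpo, the myeloperoxidase of immature granulocytes, went from 228 ± 92.8 to 6.40 ± 5.02 FPKM, the lowest level of the 9 after treatment. All 10 of 10 proliferation genes fell, and their summed level was 889 to 960 FPKM in vehicle samples. With DS-5272 it was 200, 470 and 139 FPKM for replicates 1, 2 and 3. Markers of bone marrow macrophages summed to 77.3 to 137 FPKM in vehicle and, in the same order, to 634, 142 and 182 FPKM with DS-5272. Of the 12 tested, 3 were called higher (C1qa, C1qb and C1qc) and 0 lower, beside 24.2% and 22.0% of all genes. With the replicate number as a block, which compares same-numbered samples, 5 were called higher and 0 lower, beside 30.3% and 24.9%. Without overlap between the groups, 7 were higher and 0 lower, beside 32.1% and 29.7% of all genes. The median log2 fold change of the 12 was 1.24, beside 0.042 over all genes. Vcam1 gave 36.6, 64.1 and 82.8 FPKM of the sum in vehicle and 143, 74.8 and 85.7 FPKM with DS-5272. The study reports a rise of VCAM-1 in c-Kit+ leukemia cells by mass cytometry. Erythroid markers summed to 18.2 to 22.2 FPKM in vehicle and to 156, 41.0 and 18.8 FPKM with DS-5272 in the same order. Most of the vehicle sum was Tfrc, at 13.5, 19.5 and 19.6 FPKM, which was called lower. The globin genes Hba-a1 and Hba-a2 were called higher. Hba-a1 was at 2.39, 1.045 and 0.598 FPKM in vehicle and 84.2, 14.7 and 7.07 FPKM in DS-5272 samples. Stromal and endothelial markers summed to 29.3 to 60.6 FPKM in vehicle and 73.5 to 113 FPKM in DS-5272 samples. Most of this was Pecam1, at 26.4 to 58.8 and 68.3 to 109 FPKM. The endothelial markers Cdh5, Kdr and Emcn reached at most 0.0758, 0.0274 and 0.0913 FPKM in any sample. B-cell markers summed to 4.32 to 5.02 FPKM in vehicle and 3.39 to 4.34 FPKM in DS-5272 samples. T-cell markers summed to 0.343 to 0.430 FPKM in vehicle and 0.705 to 3.54 FPKM in DS-5272 samples. The highest of these, DS-5272 replicate 1, held Cd4 at 3.28 FPKM. NK-cell markers summed to 0.435 to 0.870 FPKM in vehicle and 1.53 to 3.10 FPKM in DS-5272 samples. The part of these other cell types in the transporter results was not tested.

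The transporters moved in opposite directions. By limma on log2(FPKM + 1), with p-values adjusted over all genes at a threshold of 0.05, 3 of the 10 were called higher in DS-5272 samples (Slc7a7, Slc7a11 and Slc7a8) and 4 were called lower (Slc7a1, Slc7a5, Slc1a5 and Slc7a6), while Slc3a2, Slc38a1 and Slc38a2 did not pass. Over all genes tested, 24.2% were called higher and 22.0% lower (46.3% in either direction). After rescaling each library to a common total, the counts of the 10 were again 3 and 4, beside 15.4% and 31.9% of all genes. Without the filter on low values 0 of the 10 were called lower. Without vehicle replicate 2 or vehicle replicate 3, 1 was. Nothing particular to the 10 is thus read from either count. The groups did not overlap for 8 of the 10, with 4 higher and 4 lower, beside 32.1% and 29.7% of all genes. Slc7a11 is in both higher counts, though it passed the filter only through the DS-5272 group, which favored this direction. The median log2 fold change of the 10 was 0.21, beside 0.042 over all genes, and rescaling each library to a common total brought these to -0.050 and -0.19. The summed level of the 10 mRNAs was 263, 286 and 294 FPKM in vehicle samples and 276, 302 and 296 FPKM in DS-5272 samples. The sums overlapped, and the DS-5272 sample was higher in 3 of 3 same-numbered pairs. The FPKM total over all genes was also higher in each of these pairs. It was 445300, 492100 and 501200 in vehicle and 499200, 579900 and 661200 in DS-5272 samples. The pairwise rise of the sum thus cannot be told apart from that of the total. In bulk RNA, fewer cells that carry a transcript and less of it per cell cannot be told apart.

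**Figure D1:**
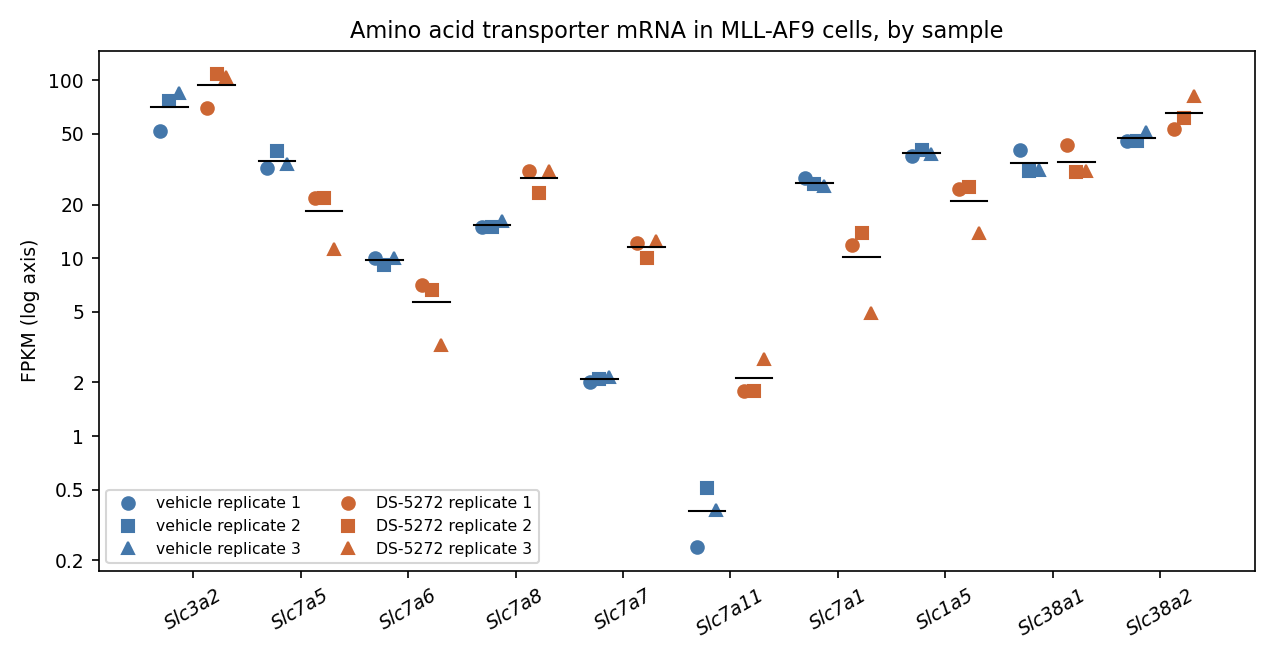
Level of each transporter mRNA in each sample, in FPKM on a log axis, for 3 vehicle samples (blue) and 3 DS-5272 samples (orange), with marker shapes for replicate numbers and black lines at the group means. The 3 DS-5272 points of Slc7a7, Slc7a8 and Slc7a11 lie above all vehicle points, those of Slc7a1, Slc7a5, Slc7a6 and Slc1a5 lie below them with replicate 3 lowest, and those of Slc3a2 and Slc38a1 overlap with vehicle.

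The common heavy chain, Slc3a2, was the most abundant of the 10 mRNAs in both groups. With vehicle, replicates 1, 2 and 3 held 51.8, 76.1 and 84.9 FPKM. With DS-5272 they held 70.0, 108 and 104 FPKM, and the other transporters are given in this replicate order. Replicate 1 was the lowest of its group on each side, and the groups overlapped. The log2 fold change was 0.40 (SE 0.24), with an adjusted p of 0.20 in limma. With the replicate number as a block, which compares same-numbered samples, the SE was 0.09 and the adjusted p 0.014, with the DS-5272 sample higher in 3 of 3 pairs. In that fit 5 of the 10 transporters were called higher and 4 lower, beside 30.3% and 24.9% of all genes. After rescaling to a common total the log2 fold change of Slc3a2 was 0.14.

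Slc7a5 and Slc7a8 encode LAT1 and LAT2, the light chains for large neutral amino acids such as leucine, and their mRNAs moved in opposite directions. Slc7a5, the form typical of growing cells and tumors, was at 31.9, 39.8 and 33.8 FPKM in vehicle samples and at 21.8, 21.9 and 11.3 FPKM in DS-5272 samples. Every DS-5272 sample lay below every vehicle sample, and replicate 3 was the lowest. The mean was 1.92-fold lower with DS-5272, and the log2 fold change of -0.95 (SE 0.25) passed in limma with an adjusted p of 0.022. The call was lost without vehicle replicate 2 (adjusted p = 0.078) and without vehicle replicate 3 (adjusted p = 0.057), and the fall was -0.66 on the log2 scale when DS-5272 replicate 3 was left out.

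Slc7a8, which also carries small neutral amino acids, was at 14.97, 15.001 and 16.1 FPKM in vehicle samples and at 30.8, 23.3 and 30.7 FPKM in DS-5272 samples. The lowest DS-5272 sample, replicate 2, was above the highest vehicle sample. The rise was 1.84-fold in the means, with a log2 fold change of 0.83 (SE 0.13) and an adjusted p of 0.0048 in limma. It was 0.76 without DS-5272 replicate 1, the sample with the most macrophage and erythroid markers (adjusted p = 0.012). Within each sample, the ratio of Slc7a8 to Slc7a5, which does not depend on library scaling, was 0.469, 0.377 and 0.478 in vehicle and 1.41, 1.07 and 2.72 in DS-5272 samples. Slc7a5 thus exceeded Slc7a8 in all 3 vehicle samples, and Slc7a8 exceeded Slc7a5 in all 3 DS-5272 samples.

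Slc7a6 and Slc7a7 encode y+LAT2 and y+LAT1, the light chains that release arginine and lysine in exchange for neutral amino acids and sodium. Slc7a6 was at 10.035, 9.12 and 9.97 FPKM in vehicle samples and at 7.02, 6.63 and 3.27 FPKM in DS-5272 samples, with no overlap and replicate 3 again lowest. Its log2 fold change was -0.74 (SE 0.24), with an adjusted p of 0.044 in limma. This was the least stable of the 7 calls: it was lost without any 1 of the vehicle replicates (adjusted p = 0.097 to 0.11) and without DS-5272 replicate 2 (adjusted p = 0.051), and leaving out DS-5272 replicate 3 gave -0.45.

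Slc7a7 showed the largest change among the 10 transporters on the log2(FPKM + 1) scale. Its mRNA, which is typical of kidney, gut and mononuclear phagocytes, was at 2.02, 2.08 and 2.16 FPKM in vehicle samples and at 12.2, 10.01 and 12.4 FPKM in DS-5272 samples. The vehicle samples spanned a narrow range, and each DS-5272 sample was far above it, so that the means differed 5.53-fold. The log2 fold change of 2.02 (SE 0.12, adjusted p = 0.00061 in limma) was the 249th highest among the 11130 genes, and it kept its call under all 16 alternatives, at 1.8 to 2.41. Macrophages are a known site of Slc7a7, and their marker sum was also higher in every DS-5272 sample, most so in replicate 1. The log2 fold change of Slc7a7 was 1.98 with DS-5272 replicate 1 left out, and the part of macrophages in it was not tested. On GRCm38 Slc7a7 lies on the minus strand at chr14:54369442-54417780, 304 kb from Slc7a8 (chr14:54722209-54781946), and it was the only 1 of the 10 with exons overlapping another gene, Oxa1l on the opposite strand. Counting by strand is not stated, so the Slc7a7 value can include fragments of Oxa1l, and their part was not tested. Oxa1l was at 30.4 ± 0.82 FPKM in vehicle and 29.8 ± 3.80 FPKM in DS-5272 samples (SD, n = 3 each), with a log2 fold change of -0.033 (SE 0.11).

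Slc7a11 encodes xCT, the light chain that takes up cystine in exchange for glutamate, and it is known as a gene that p53 represses in other cells. It was the least abundant of the 10 mRNAs in both groups, at 0.237, 0.509 and 0.387 FPKM in vehicle samples and 1.799, 1.801 and 2.73 FPKM in DS-5272 samples. The groups did not overlap, and the means differed 5.59-fold. Its log2 fold change was 1.17 (SE 0.17, adjusted p = 0.0041 in limma) on the log2(FPKM + 1) scale, which compresses low values, and 2.22 with a pseudocount of 0.1 in place of 1. It passed in all 15 alternatives that could be run. As it met the filter only through its DS-5272 level, a call in this direction was favored. Without the filter its adjusted p was 0.023 in limma.

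The promoters of the steepest risers, Slc7a7 and Slc7a11, are shown because they were the only 2 of the 7 transporters with a promoter entry that held TGATGNAAN, the letters of the C/EBP-ATF response element through which ATF4 acts on amino acid genes. In capitals are its matches on either strand in the stretch up to the RefSeq transcript start (GRCm38.p6, minus strand, read 5′ to 3′ toward the gene). For Slc7a11 (chr3:50443614-50443863) the matches begin 66 and 48 bases before the start, the latter on the other strand, and the second overlaps a match to TGANNNNGC, the antioxidant response element core. For Slc7a7 (chr14:54417937-54418194, continued 8 bases into the transcript) they begin 141 and 1 bases before the outermost of 5 RefSeq starts, which lies outside the GENCODE gene.
Slc7a11: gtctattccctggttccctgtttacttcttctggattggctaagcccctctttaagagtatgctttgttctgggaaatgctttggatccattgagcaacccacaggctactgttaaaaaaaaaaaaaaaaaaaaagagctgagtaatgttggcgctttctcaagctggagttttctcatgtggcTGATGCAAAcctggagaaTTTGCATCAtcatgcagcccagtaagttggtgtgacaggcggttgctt
Slc7a7: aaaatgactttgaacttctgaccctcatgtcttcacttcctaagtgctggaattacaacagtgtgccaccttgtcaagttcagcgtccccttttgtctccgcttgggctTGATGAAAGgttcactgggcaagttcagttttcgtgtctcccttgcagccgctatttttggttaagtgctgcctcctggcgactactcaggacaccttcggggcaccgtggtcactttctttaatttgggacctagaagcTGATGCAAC
Among 32851 RefSeq promoter windows of 300 bases, 3.95% held TGATGNAAN and 0.07% held it at least 2 times. No match lay in the windows of Slc7a1, Slc7a6, Slc7a8, Slc3a2 or Slc38a2, and no window of the 7 held the E-box CACGTG, which 7.15% of all windows hold. The search was unequal: Slc7a7 had 5 windows, Slc7a1 and Slc7a6 had 2 each, and the others had 1. The Slc3a2 start (chr19:8713897) lay inside its GENCODE gene (chr19:8706882-8723369, minus strand), away from its outer end. Slc7a5, Slc1a5 and Slc38a1 had no entry and were not searched. TGANNNNGC stood in at least 1 window of Slc7a1, Slc7a6, Slc7a7, Slc7a11 and Slc38a2, and in 41.3% of all windows. The p53 half-site, present in 8.36% of all windows, was found once, in the outermost window of Slc7a7. These are matches of letters only, and Slc7a11 and Slc7a7 were shown after their levels were known.

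**Figure D2:**
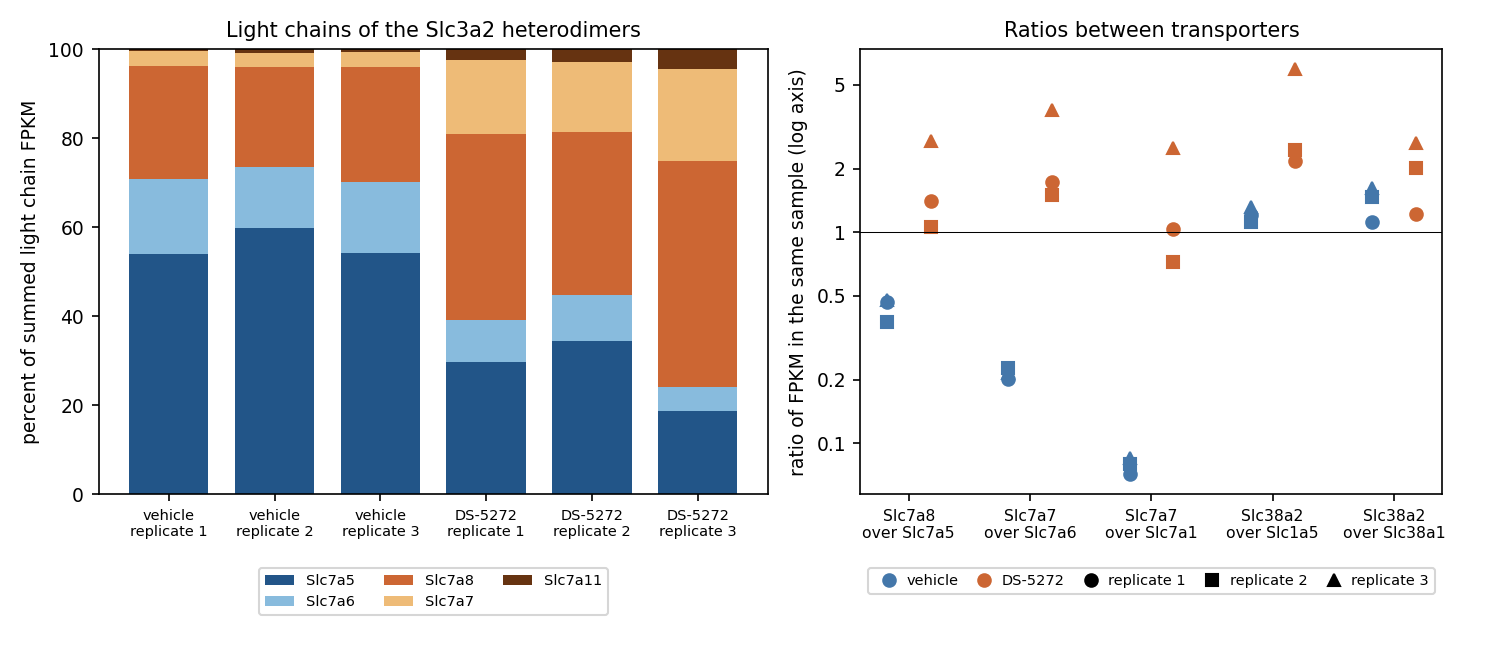
Left, each of the 5 light chains as a percent of their summed FPKM in each sample. Right, ratios of FPKM between pairs of transporters within a sample on a log axis (blue, vehicle; orange, DS-5272; shapes, replicate numbers). Slc7a5 held 53.9 to 59.8% of the light chains in vehicle and 18.7 to 34.4% in DS-5272 samples. The ratios of Slc7a8 to Slc7a5, Slc7a7 to Slc7a6, Slc7a7 to Slc7a1 and Slc38a2 to Slc1a5 were separated between groups. This follows from the single genes, since each upper gene was higher and each lower gene was lower without overlap, and is no further result.

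Taken as a pool, the 5 light chain mRNAs changed in makeup more than in summed FPKM. They summed to 59.2, 66.5 and 62.4 FPKM in vehicle samples and to 73.7, 63.6 and 60.4 FPKM in DS-5272 samples, which overlapped. The FPKM total over all genes was higher with DS-5272 in each same-numbered pair. The light chain sums thus depend on library scaling, while shares within a sample do not. Slc7a5 made up 53.9, 59.8 and 54.1% of the light chain sum in vehicle samples and 29.6, 34.4 and 18.7% in DS-5272 samples. It was the leading light chain in each vehicle sample, and Slc7a8 was the leading one in each DS-5272 sample, where it held 41.9, 36.6 and 50.8% against 25.3, 22.6 and 25.9% in vehicle. Slc7a7 went from 3.33 ± 0.18% to 17.6 ± 2.59% and Slc7a11 from 0.595 ± 0.18% to 3.26 ± 1.10%, while Slc7a6 went from 15.6 ± 1.66% to 8.45 ± 2.67% (mean ± SD, n = 3 each). Slc7a8 and Slc7a7 together held 28.7, 25.7 and 29.3% in vehicle samples and 58.4, 52.4 and 71.4% in DS-5272 samples. This joint share largely follows from the single genes and is no further result, since both were called higher and Slc7a5 and Slc7a6 lower. These shares compare FPKM, which is per transcript length, and say nothing of protein at the membrane. The heavy chain stood at 0.876, 1.14 and 1.36 times the summed light chains in vehicle and 0.950, 1.69 and 1.72 times in DS-5272 samples. These ranges overlapped, and the ratio was higher in 3 of 3 pairs.

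Slc7a1 encodes CAT1, a carrier of arginine and lysine that works without a heavy chain, and it showed the largest fall of the 10. Its mRNA was at 28.1, 25.9 and 25.3 FPKM in vehicle samples and at 11.8, 13.8 and 4.94 FPKM in DS-5272 samples. All DS-5272 samples lay below the vehicle range, and replicate 3 was well below the other two. The mean was 2.60-fold lower (log2 fold change -1.40, SE 0.33, adjusted p = 0.014 in limma), and the call held whichever of the 6 samples was left out, from -1.65 without DS-5272 replicate 2 to -0.99 without DS-5272 replicate 3 on the log2 scale. The ratio of Slc7a7 to Slc7a1, genes for exit and entry of cationic amino acids, was 0.0719, 0.0803 and 0.0852 in vehicle samples and 1.03, 0.724 and 2.51 in DS-5272 samples. Slc7a6, also a gene for exit, is not in this ratio and fell from a mean of 9.71 to 5.64 FPKM. The ratio thus describes these 2 genes and not exit against entry as a whole.

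Slc1a5, Slc38a1 and Slc38a2 serve glutamine and small neutral amino acids, and they did not move together. Slc1a5 encodes ASCT2, a sodium-dependent exchanger of glutamine, serine and alanine. It was at 37.5, 40.6 and 38.7 FPKM in vehicle samples and at 24.3, 25.1 and 13.8 FPKM in DS-5272 samples, with no overlap and replicate 3 lowest. The mean was 1.85-fold lower, with a log2 fold change of -0.90 (SE 0.22) and an adjusted p of 0.017 in limma. The call was lost without vehicle replicate 2 (adjusted p = 0.060) and without vehicle replicate 3 (adjusted p = 0.051), and the value was -0.64 without DS-5272 replicate 3.

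Slc38a1 and Slc38a2 encode SNAT1 and SNAT2, sodium-coupled carriers that load cells with glutamine and alanine, and the genes lie 44.5 kb apart on chromosome 15 (chr15:96571418-96642913 and chr15:96687392-96699730, both on the minus strand). Slc38a2 is known for its induction when amino acids are scarce. It was at 45.5, 45.5 and 51.0 FPKM in vehicle samples and at 52.97, 61.4 and 81.6 FPKM in DS-5272 samples, each above the vehicle range. Its log2 fold change of 0.44 (SE 0.17) missed the threshold with an adjusted p of 0.068 in limma. With the replicate block the adjusted p was 0.023 and the DS-5272 sample was higher in 3 of 3 pairs. Leaving out DS-5272 replicate 1 gave 0.57 (adjusted p = 0.025), and after rescaling to a common total it was 0.17.

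Slc38a1 was at 40.6, 30.8 and 31.3 FPKM in vehicle and at 43.2, 30.6 and 30.8 FPKM in DS-5272 samples. Replicate 1 was the highest of each group, and same-numbered samples differed by little. The log2 fold change was 0.019 (SE 0.18, adjusted p = 0.94 in limma), with a negative sign at a common total (-0.24). Slc38a2 stood at 1.12, 1.48 and 1.63 times Slc38a1 in vehicle samples and at 1.23, 2.01 and 2.65 times in DS-5272 samples, which overlapped but were higher in 3 of 3 pairs. It stood at 1.22, 1.12 and 1.32 times Slc1a5 in vehicle samples and at 2.18, 2.45 and 5.91 times in DS-5272 samples. The lack of overlap in this ratio follows from that of the 2 genes.

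**Figure D3:**
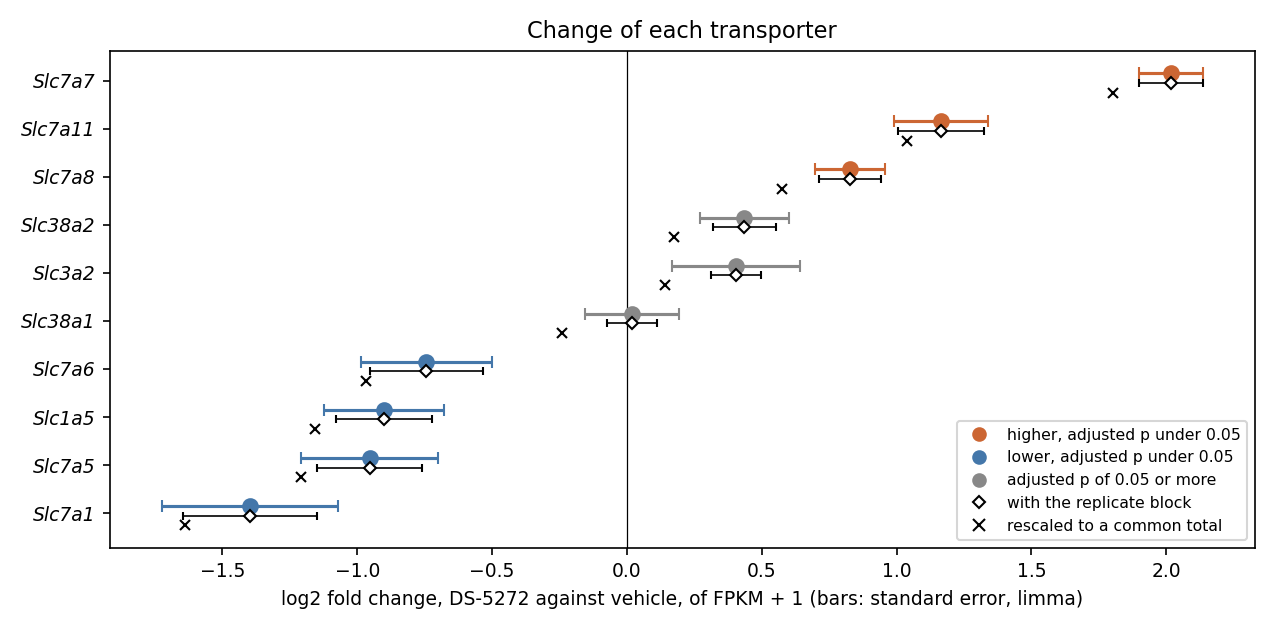
Log2 fold change of each transporter, DS-5272 against vehicle, on the log2(FPKM + 1) scale, with bars for the standard error from limma. Filled points are the unblocked fit, diamonds the fit with the replicate block, and crosses the values after rescaling to a common total. The crosses lie to the left of the points for all 10, and only Slc38a1 changes sign between them.

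In order of level, the vehicle samples ran Slc3a2, Slc38a2, Slc1a5, Slc7a5, Slc38a1, Slc7a1, Slc7a8, Slc7a6, Slc7a7 and Slc7a11. In this order, the neighbours Slc1a5 and Slc7a5, and Slc7a5 and Slc38a1, had overlapping sample ranges, and no other neighbours did. In DS-5272 samples, Slc7a8 moved from the 7th to the 4th place and Slc7a7 from the 9th to the 7th, while Slc1a5 went from the 3rd to the 5th, Slc7a5 from the 4th to the 6th and Slc7a1 from the 6th to the 8th. Overlap was then more common: Slc7a8 overlapped with Slc38a1 above it and Slc1a5 below it, and Slc7a7 (10.01 to 12.4 FPKM) with Slc7a5 and Slc7a1. The levels of Slc7a1, Slc7a5, Slc7a6 and Slc1a5 were lowest in DS-5272 replicate 3 in all 4 cases. This was also the shallowest library, with the smallest sum of proliferation genes and the largest FPKM total, and the part of these properties in the falls was not tested. All 4 stayed lower without it, at -0.99, -0.66, -0.45 and -0.64 in that order, with adjusted p of 0.0033, 0.00995, 0.016 and 0.0048. When the filter on low values was dropped, so that 26082 genes shared the adjustment, none of these 4 falls passed (limma adjusted p = 0.086 to 0.17), while the 3 rises did.

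Outside the 10, most other cell-surface amino acid transporters were low in these cells. Of 24 such genes, 6 passed the filter on low values, with a median log2 fold change of 0.17. Among these 6, 2 were called higher and 1 lower, beside 24.2% and 22.0% of all genes. Slc43a2 (LAT4), which lets large neutral amino acids pass without exchange, went from 12.6 ± 0.86 to 32.5 ± 6.57 FPKM (log2 fold change 1.28, SE 0.16, adjusted p = 0.0027 in limma). This leucine carrier thus moved in the direction of Slc7a8, not of Slc7a5. Slc6a6, the taurine transporter, was 31.5 ± 3.51 and 51.8 ± 3.60 FPKM (log2 fold change 0.70). Slc7a2 (CAT2), the relative of Slc7a1 for cationic amino acids, fell from 3.55 ± 0.26 to 1.37 ± 0.41 FPKM (log2 fold change -0.95), and Slc7a3 (CAT3) was close to 0 in all samples. Both detected members of the cationic carrier family, Slc7a1 and Slc7a2, were thus called lower.

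In lysosomal membranes, the 7 amino acid transporters tested had a median log2 fold change of 0.51. Of these, 4 were called higher and 0 lower, beside 24.2% and 22.0% of all genes. Without vehicle replicate 1 or 2 the higher count was 2, and without vehicle replicate 3 or after rescaling to a common total it was 1. Slc15a3, a carrier of histidine and small peptides that kept its call at a common total, was at 2.60, 3.002 and 2.59 FPKM in vehicle samples and 43.9, 49.1 and 59.5 FPKM in DS-5272 samples, an 18.6-fold rise in the means (log2 fold change 3.79, SE 0.13, adjusted p = 0.00018 in limma). Ctns, the cystine exporter, had a log2 fold change of 0.63 (adjusted p = 0.013, with 0.052 without vehicle replicate 3 and 0.18 at a common total). Slc38a9, the lysosomal arginine sensor of mTORC1 and a relative of Slc38a1 and Slc38a2, had 0.59 (adjusted p = 0.048, and 0.050 with the replicate block), and its call was lost in 5 of the 6 fits without 1 sample, at 0.051 to 0.14.

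**Figure D4:**
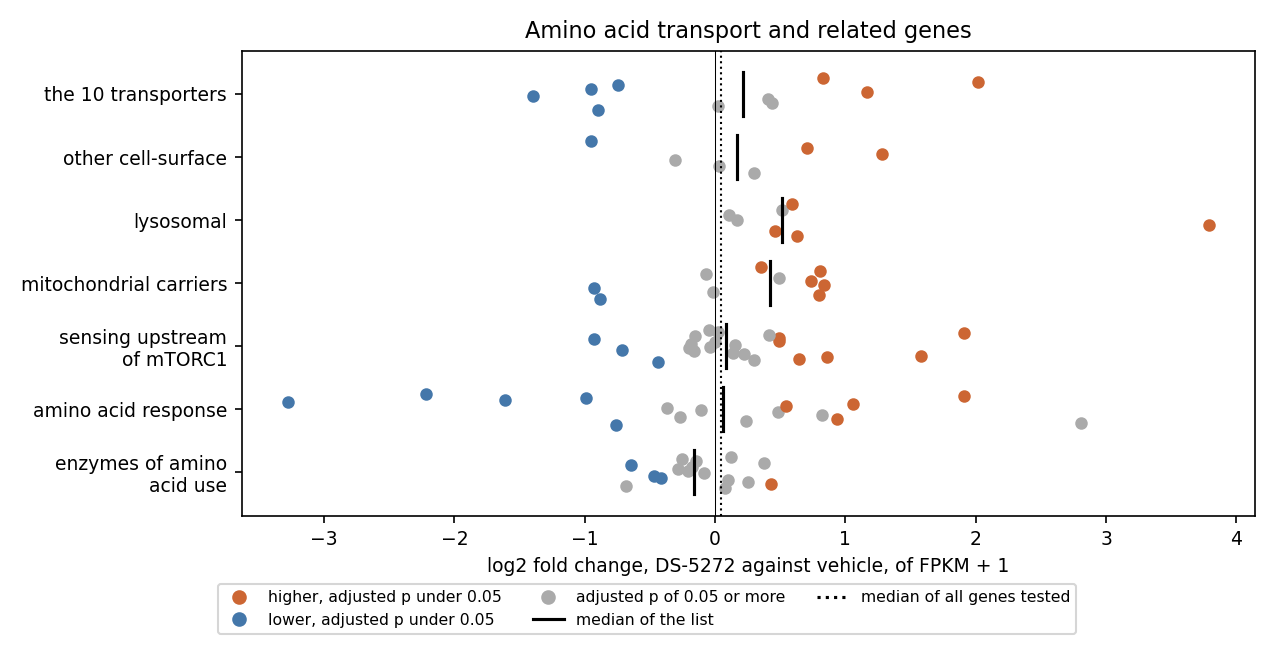
Log2 fold changes on the log2(FPKM + 1) scale of the tested genes of 7 lists, with 1 point a gene, orange for called higher, blue for called lower and grey for not called. Solid bars give list medians, from 0.51 for lysosomal transporters to -0.16 for enzymes, and the dotted line gives the median of all genes tested (0.042).

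All 10 of the mitochondrial amino acid carriers were tested, and 5 were called higher and 2 lower (6 and 2 with the replicate block), with a median of 0.42. The shares over all genes were 24.2% and 22.0% (30.3% and 24.9% with the block). Slc25a15, the ornithine carrier, rose by 0.84, Slc25a38, the glycine carrier, by 0.81 and Sfxn3 by 0.80 on the log2 scale. Slc25a13, the aspartate-glutamate carrier, fell by 0.93 and Sfxn1, the serine carrier, by 0.88, and these were lowest in DS-5272 replicate 3 like the falling surface transporters. Of 22 genes tested that relay amino acid levels to mTORC1 or encode subunits of mTORC1 itself, 6 were called higher and 3 lower (7 and 3 with the replicate block). The same shares over all genes stand beside these counts. Sesn2, the leucine-binding inhibitor of this pathway and a p53 target, was at 7.79, 6.98 and 6.81 FPKM in vehicle samples and 20.3, 24.2 and 52.7 FPKM in DS-5272 samples (log2 fold change 1.91, SE 0.33, adjusted p = 0.0059 in limma). Castor2, listed as Gatsl2 and related to the arginine sensor, rose by 1.58, and Fnip2, a partner of folliculin, by 0.86. Rragb, Mios and Depdc5 fell by 0.93, 0.71 and 0.44, and the last call was lost without any 1 of the vehicle replicates. After rescaling to a common total, the calls of this list were 4 higher and 6 lower, beside 15.4% and 31.9% of all genes, so that nothing particular to the list is read from either count.

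The amino acid response, in which the kinase Gcn2 (Eif2ak4) acts through ATF4, is the textbook driver of Slc7a11, Slc3a2, Slc7a1, Slc7a5 and Slc38a2 when amino acids run short. Of its 16 tested genes other than transporters, 4 were called higher and 5 lower, beside 24.2% and 22.0% of all genes. The called genes of the list thus went both ways. Atf4 mRNA itself was at 107, 202 and 228 FPKM in vehicle and 98.8, 280 and 290 FPKM in DS-5272 samples (log2 fold change 0.23, adjusted p = 0.71 in limma), and replicate 1 was the lowest of each group, as for Slc3a2. Called higher with the largest values were Sesn2, Nupr1 (1.06) and Cebpb (0.94), the last of which lost its call in 5 of the 6 fits that left out 1 sample. The 5 falls were those of genes of serine, glycine and asparagine synthesis. Phgdh, the first enzyme of serine synthesis, went from 14.3 ± 0.90 to 0.641 ± 0.58 FPKM (log2 fold change -3.28, SE 0.26, adjusted p = 0.00073), Psat1 changed by -1.61 and Shmt2, which makes glycine from serine, by -2.21. With the replicate block, 6 of this list were called higher and 5 lower, beside 30.3% and 24.9% of all genes. Ddit3 and Atf3 were the additions (named after their values were seen).

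Among enzymes that use arginine, glutamine, branched-chain amino acids, tryptophan or cysteine, 16 of 27 were tested, and the median was -0.16. Of these, 1 was called higher and 3 lower, beside 24.2% and 22.0% of all genes. With the replicate block the counts were 2 and 4, beside 30.3% and 24.9%. These calls were unstable: the higher count was 0 in 5 of the 6 fits without 1 sample, all but that without DS-5272 replicate 1. The lower count was 1 without any 1 of the vehicle replicates or DS-5272 replicate 2. Bcat2, the mitochondrial aminotransferase for branched-chain amino acids, had a log2 fold change of 0.43 (limma adjusted p = 0.032, with 0.054 to 0.093 in the 5 fits where it was lost). Got2, the mitochondrial aspartate aminotransferase, fell by 0.65, Gclc, the first enzyme of glutathione synthesis downstream of cystine uptake, by 0.47, and Dbt, a subunit of the branched-chain keto acid dehydrogenase, by 0.41. The call of Gclc was lost in 4 of those fits, at adjusted p = 0.064 to 0.087, and that of Dbt in 5, at 0.051 to 0.13.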

How the data were processed

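RNA-Seq was made from sorted MLL-AF9 leukemia cells of 3 vehicle and 3 DS-5272 samples, grouped by the treatment label. The authors prepared strand-specific libraries, trimmed paired-end reads (cutadapt 1.8.1), aligned them to GRCm38 (TopHat2 2.1.1) and deposited FPKM values per gene from Cufflinks 2.2.1, per the submitters' processing notes and the methods. Whether strand was used in counting is not given in the sources used here. The FPKM table has 26632 entries, lines that share a symbol were summed, and it holds no counts, so no count model was used.

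Groups were compared with limma 3.58.1 in R 4.3.3 (lmFit, eBayes with trend, two-sided) on log2(FPKM + 1) for genes averaging at least 1 FPKM, with Benjamini-Hochberg adjustment over 11130 genes and a threshold of 0.05. An exact permutation test has a smallest p of 0.1 in this design of 3 against 3. The script was tested on simulated data. Python 3.11.15 with pandas 2.3.3 and matplotlib 3.10.9 was used for tables and plots, and promoter windows came from RefSeq and gene coordinates from GENCODE.

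The transporters and the gene lists were chosen with earlier results of these data known. All transporters are named, and from each amino acid list the 3 largest rises and 3 largest falls past the threshold. Slc7a3, Atf4, Oxa1l, Atf3, Ddit3 and the marker genes given by name were added after their values were seen.

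Depth was estimated from the FPKM steps of genes under 0.15 FPKM and of 451 single-transcript genes, and gives scale only. Replicate numbers are shared by the groups. Deviations from group means correlated by 0.66, 0.21 and 0.43 between same-numbered samples and by -0.58 to 0.34 between others. As each same-numbered value was above 0.1, the replicate number was used as a block in a further fit, while the main fit was unblocked. The correlations do not settle the pairing: vehicle replicate 2 reached 0.34 with DS-5272 replicate 3 and 0.21 with DS-5272 replicate 2. No label names a shared batch or day. The blocked value is printed where it changes the call of a transporter or of a named gene, or a count of called genes that is given for a list. Other alternatives were the pseudocount, the filter, 4 rescalings, no trend, the highest line in place of the sum, and leaving out each sample.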

Additional observations from a re-analysis of the deposited data

How the results depend on the processing

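Of the 159 alternative fits of single transporters, 136 kept direction and side of the threshold, 13 lost a call, 3 gained one and 7 changed sign, all 7 of these for Slc38a1. Its log2 fold change of 0.019 became -0.12 at a common upper quartile, -0.024 by median ratio, -0.24 at a common total, -0.10 after quantile normalization, and -0.048, -0.039 and -0.14 without vehicle replicate 2, vehicle replicate 3 and DS-5272 replicate 1, in a range of -0.14 to 0.14 when 1 sample was left out. Slc7a6 also lost its call by median ratio (limma adjusted p = 0.051). Transporters called higher became 5 with the replicate block and were 3 to 4 when 1 sample was left out. Transporters called lower became 0 without the filter on low values and were 1 to 4 when 1 sample was left out, with 1 without vehicle replicate 2 or vehicle replicate 3. The block changed no other call among the transporters than those of Slc3a2 and Slc38a2.

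Their median log2 fold change turned from 0.21 to -0.050 at a common total, where the median of all genes went from 0.042 to -0.19. Over all genes, 2697 were called higher and 2451 lower. Without the filter these were 1740 and 1549, at a common total 1713 and 3555, and when 1 sample was left out 1623 to 2934 and 1389 to 2432, both lowest without vehicle replicate 2. Calls were 52.4% higher ones, against 32.5% at a common total, 41.3% at a common upper quartile and 43.5% after quantile normalization. The share of light chains held by Slc7a7 rose by 14.3 percentage points, and by 27.3 with Slc7a8 left out of the sum, and that of Slc7a11 by 2.67 and 5.16, since fewer genes then make up the sum. Of 413 alternative fits of 26 named genes outside the transporters, 42 lost a call and 0 changed sign. A mean of at least 5 FPKM left Slc7a11 out. The causes of lost calls were not tested.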
